A study of Homo sapiens with 2 samples.

Results

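The 10 genes described here were taken as p53 target genes of growth arrest and stress, namely CDKN1A, MDM2, GADD45A, GADD45B, GADD45G, IGFBP3, SESN1, BTG2, RRM2B and CCNG1. They were chosen by name from the 59792 genes of the RefSeq table of GRCh38.p14, and all 10 are among its 20056 protein-coding genes. A gene was given a peak when the peak lay inside it or within 3 kb of either end. CUT & Tag, in which an antibody leads a transposase to a protein so that it cuts the DNA beside it, was done with an anti-Flag antibody in TFK-1, a human cell line of extrahepatic cholangiocarcinoma. The LV-HOXA5 cells carried a lentivirus for Flag-tagged HOXA5, and the LV-HOXA5-NC cells its negative control virus, and by the study's methods stable lines were kept after puromycin selection. Each condition had 1 library from 1000000 cells, with 15778555 fragments and 8043 peaks in LV-HOXA5 and 1948734 fragments (12.4% of the former) and 635 peaks in LV-HOXA5-NC. No difference between the conditions therefore has a replicate check, and no test was made.

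p53 is a transcription factor that is stabilised after DNA damage and other stress and that switches on genes which halt the cell cycle, repair DNA or start apoptosis. CDKN1A encodes the p21 inhibitor of cyclin-dependent kinases, and MDM2 the ubiquitin ligase that marks p53 itself for degradation. HOXA5 is a homeodomain protein, a class that commonly reads DNA through a core of the letters TAAT. The peak lists show where anti-Flag signal was enriched, and they hold no measure of p53 binding or of transcription.

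In LV-HOXA5 cells, 3 of the 10 genes had a peak, CCNG1, RRM2B and SESN1, with 4 peaks in all. Over all protein-coding genes the share with a peak under the same rule was 20.7% (4143 genes). The exact 95% binomial interval of 3 of 10 was 6.67 to 65.2%, which is wide and includes that background. It covers counting error only. The genes were named rather than drawn at random, they are not independent, and a difference from that background was not tested. The other 7 genes, CDKN1A, MDM2, GADD45A, GADD45B, GADD45G, IGFBP3 and BTG2, had none. In LV-HOXA5-NC cells, 0 of the 10 genes had a peak, where 0.648% of the protein-coding genes did.

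The sequences before the starts of CCNG1 and SESN1 are shown because a peak lay over each start. Those of CDKN1A and GADD45B are shown as genes of the same set without a peak. The CDKN1A start used is at 36678714, inside the gene as the table gives it (chromosome 6, 36676463 to 36687332). Each run is the 250 bases before a RefSeq start in GRCh38.p14, written 5′ to 3′ on the gene's strand. Capitals mark 5 short motifs on either strand (TAAT of homeodomain proteins, CCAAT of NF-Y, GGGCGG of the Sp1 family, CACGTG as the E-box and TGANTCA of AP-1), so their reverse complements appear too, and neighbouring matches may overlap, as they do in CDKN1A.
CCNG1 (chr5:163437321-163437570, plus strand): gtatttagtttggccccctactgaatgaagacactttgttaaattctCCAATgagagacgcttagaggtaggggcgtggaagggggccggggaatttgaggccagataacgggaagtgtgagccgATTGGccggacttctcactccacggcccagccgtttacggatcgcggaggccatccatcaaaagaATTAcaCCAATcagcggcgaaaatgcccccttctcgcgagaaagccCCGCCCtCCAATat
SESN1 (chr6:109094847-109095096, minus strand): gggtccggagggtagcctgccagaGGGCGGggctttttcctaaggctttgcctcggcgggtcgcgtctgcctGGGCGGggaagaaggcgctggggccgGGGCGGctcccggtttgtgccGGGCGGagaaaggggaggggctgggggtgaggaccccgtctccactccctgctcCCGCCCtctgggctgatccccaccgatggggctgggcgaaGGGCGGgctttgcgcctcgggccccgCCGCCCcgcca
CDKN1A (chr6:36678464-36678713, plus strand): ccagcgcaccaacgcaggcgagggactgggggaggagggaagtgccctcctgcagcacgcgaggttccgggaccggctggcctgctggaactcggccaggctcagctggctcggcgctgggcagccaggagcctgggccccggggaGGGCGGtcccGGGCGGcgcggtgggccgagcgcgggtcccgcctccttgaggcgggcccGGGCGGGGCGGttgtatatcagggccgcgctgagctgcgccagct
GADD45B (chr19:2475877-2476126, plus strand): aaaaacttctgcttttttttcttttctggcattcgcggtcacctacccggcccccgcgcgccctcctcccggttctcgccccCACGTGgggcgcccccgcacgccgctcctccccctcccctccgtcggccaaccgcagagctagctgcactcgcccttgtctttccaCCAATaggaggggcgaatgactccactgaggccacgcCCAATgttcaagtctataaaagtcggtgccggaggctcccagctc

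CCNG1, which encodes cyclin G1, a p53 target that acts with protein phosphatase 2A on MDM2, had the strongest peak among the 10 genes. The gene lies on chromosome 5 from 163437571 to 163457640, and the peak ran from 163437291 to 163437939, across its start. The summit at 163437568 was 3 bp from the first base of the gene. The peak had a pileup (fragments over the summit, not scaled for depth) of 39 fragments, with an exact 95% Poisson interval of 27.7 to 53.3 that covers counting error only. Its fold enrichment, taken against the background around it in the same library, was 9.07, against a median of 4.82 in the list, and its −log10 q-value was 23.6. By fold enrichment it ranked 321 among the 8043 peaks, above 96.0% of them. By −log10 q-value it ranked 494, and by pileup 768.

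Peaks over an annotated start form the closest class of peaks for comparison. Of these there were 1376 in LV-HOXA5, with a median fold enrichment of 4.99 and a median pileup of 17 fragments. The CCNG1 peak had a higher fold enrichment than 98.8% of them and a higher pileup than 94.5%. When each of the 4143 protein-coding genes with a peak was represented by its highest fold enrichment, CCNG1 ranked 59. Its local background was 3.41 fragments, 2.37 times the lowest level in the library. The peak also covered the start of LOC105377700, a lncRNA gene on the opposite strand, which lay 246 bp from the summit.

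**Figure D1:**
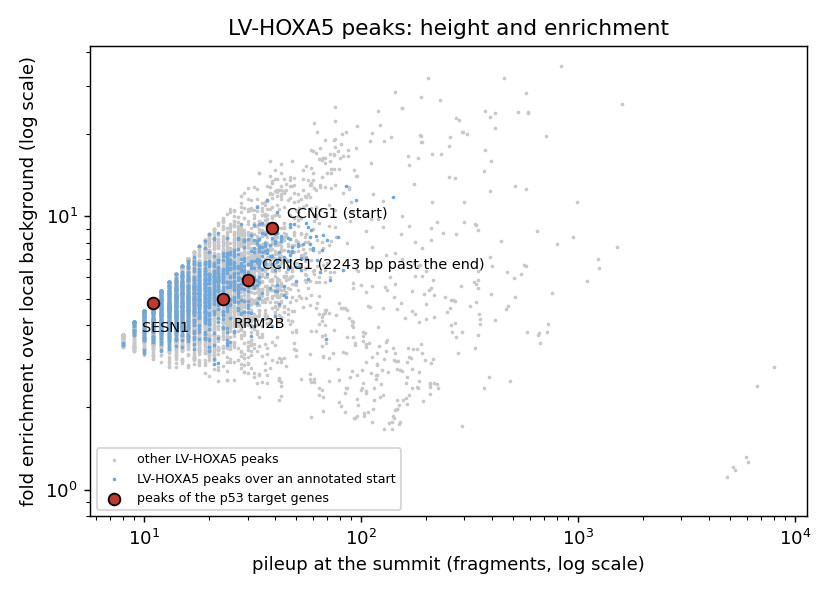
Pileup at the summit in fragments (x axis, log scale) and fold enrichment over the local background (y axis, log scale) of the 8043 LV-HOXA5 peaks. Each small point is a peak, blue where it covers an annotated start and grey elsewhere, and the 4 red points are the peaks of the p53 target genes, of which the CCNG1 start peak (39 fragments, 9.07-fold) stands near the upper edge of the blue points and the others among them.

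A further peak of 1031 bp lay 2243 bp past the other end of CCNG1 (chromosome 5, 163459883 to 163460913), with a pileup of 30 fragments (interval 20.2 to 42.8), a 5.86-fold enrichment and rank 1968. This peak was longer than 98.0% of the list. It covered the starts of both neighbours, NUDCD2 on the minus strand and HMMR on the plus strand. HMMR encodes a hyaluronan receptor that also acts at the mitotic spindle, and the summit was 25 bp from its start, 555 bp from that of NUDCD2 and 3017 bp from the end of CCNG1. The peak belongs to CCNG1 only by the 3 kb rule, and CCNG1 kept its start peak when the limit was 1 kb. Having at least 2 peaks was shared by 632 protein-coding genes, or 3.15%.

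SESN1 encodes sestrin 1, which responds to stress and restrains mTORC1 signalling. It is the longest of the 10 genes (chromosome 6, 108984309 to 109094846) and is read on the minus strand. Its peak ran from 109094677 to 109094987 and covered the start, with the summit 14 bp inside the gene. With a pileup of 11 fragments (interval 5.49 to 19.7), it was the lowest of the 4 peaks, and 5.74% of the peaks over an annotated start were lower. Its fold enrichment was 4.82, which put it at rank 4006, in the middle of the list. The rank fell to 5741 by −log10 q-value (3.83) and to 6787 by pileup. Its local background was 1.49 fragments, 1.04 times the lowest level in the library, and the lowest of the 4 peaks. RefSeq lists 3 starts for SESN1 in the promoter table, and no peak overlapped the windows at the others, at 109009552 and 109008988. The gene CEP57L1 starts 176 bp beyond the peak on the opposite strand.

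RRM2B encodes the p53-inducible small subunit of ribonucleotide reductase, which supplies deoxynucleotides for DNA repair. The gene lies on chromosome 8 from 102204501 to 102238961, and its peak ran from 102239136 to 102239645, outside the gene and 175 bp beyond its higher end. The pileup was 23 fragments (interval 14.6 to 34.5), the fold enrichment 4.97 and the −log10 q-value 7.62. It ranked 3580 by fold enrichment, and higher by −log10 q-value (2622) and by pileup (2063). The summit lay 485 bp from RRM2B. The strand of RRM2B was not in the tables used here.

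The peaks of CCNG1 and SESN1 thus lay within 3 kb of an end of another gene too. Among the 2362 LV-HOXA5 peaks that had a protein-coding gene end within 3 kb, 1337 (56.6%) were within 3 kb of ends of at least 2 genes, so this arrangement was common in the list. A peak at such a place cannot be given to 1 of the genes from its position alone.

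**Figure D2:**
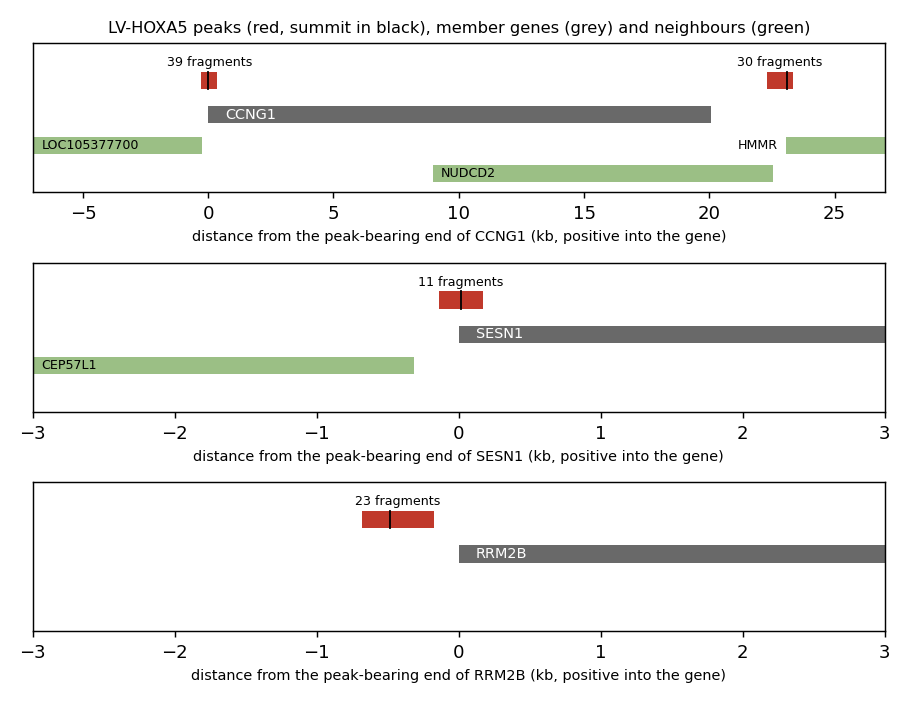
Position of the LV-HOXA5 peaks (red bars, summit in black, pileup above) at CCNG1, SESN1 and RRM2B, with the gene in grey and neighbours of CCNG1 and SESN1 in green, against the distance in kb from the end of the gene where its nearest peak lies. The summits of CCNG1 and SESN1 fall 3 and 14 bp from the start, that of RRM2B falls outside the gene, and the far CCNG1 peak falls at the start of HMMR.

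The 7 genes without a peak lay 57.0 to 307 kb from the nearest LV-HOXA5 peak, with a median of 192 kb. The 15913 protein-coding genes without a peak had a median distance of 127 kb, with 25% of them under 46.3 kb and 25% over 318 kb. IGFBP3, which encodes a binding protein of insulin-like growth factors, had the closest peak at 57.0 kb (pileup 15 fragments, 4.54-fold). MDM2 followed at 121 kb (15 fragments, 4.81-fold) and CDKN1A at 187 kb (15 fragments, 5.30-fold). These distances were not unusual, since 44.0%, 59.2% and 69.1% of the protein-coding genes had a nearer peak.

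The GADD45 genes encode small stress proteins that bind cyclin B1-CDK1 and an upstream MAP kinase kinase kinase, and none of the 3 had a peak. The distance was 192 kb for GADD45A (15 fragments, 6.10-fold), 286 kb for GADD45G (15 fragments, 5.72-fold) and 307 kb for GADD45B (23 fragments, 6.23-fold). BTG2, an antiproliferative protein that promotes the shortening of mRNA tails, lay 218 kb from a peak of 11 fragments and 3.85-fold enrichment. Of the 10 genes, GADD45B had the greatest distance. The share of protein-coding genes with a nearer peak was 69.7% for GADD45A, 72.4% for BTG2, 77.9% for GADD45G and 79.3% for GADD45B, and all 4 distances lay between the 46.3 and 318 kb given above.

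The wider surroundings of these genes were not empty of peaks. Inside each gene or within 500 kb of it, the number of LV-HOXA5 peaks was 1 for GADD45G, 2 for CDKN1A, IGFBP3 and SESN1, 3 for GADD45A, GADD45B and CCNG1, 5 for BTG2 and RRM2B, and 6 for MDM2. These counts include the 4 peaks described above, of which CCNG1 had 2. The median was 3 both for the 10 genes and for all protein-coding genes. A region with the lowest local background (1.44 fragments) needed a pileup of 8 fragments to be listed, so a weaker enrichment at the 7 genes was not detectable.

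Gene length moved with the presence of a peak. With the protein-coding genes split by length into 4 groups of equal size, 10.6% of the shortest group (up to 8.53 kb) had an LV-HOXA5 peak, and the shares were 17.7%, 22.3% and 32.1% in the next groups. GADD45A, GADD45B, GADD45G and BTG2 belonged to the shortest group and had no peak. SESN1, the only 1 of the 10 in the longest group, had its peak at the start and none within its body. A measure that depends less on length is the overlap of a peak with a promoter window, from 250 bases before to 50 after a RefSeq start. By this measure, CCNG1 and SESN1 were hit among the 8 genes with such a window, and 12.6% of 15843 protein-coding genes were. In LV-HOXA5-NC, 0 of the 8 were hit, beside 0.0316% of the protein-coding genes. GADD45A and RRM2B had no window in the table.

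**Figure D3:**
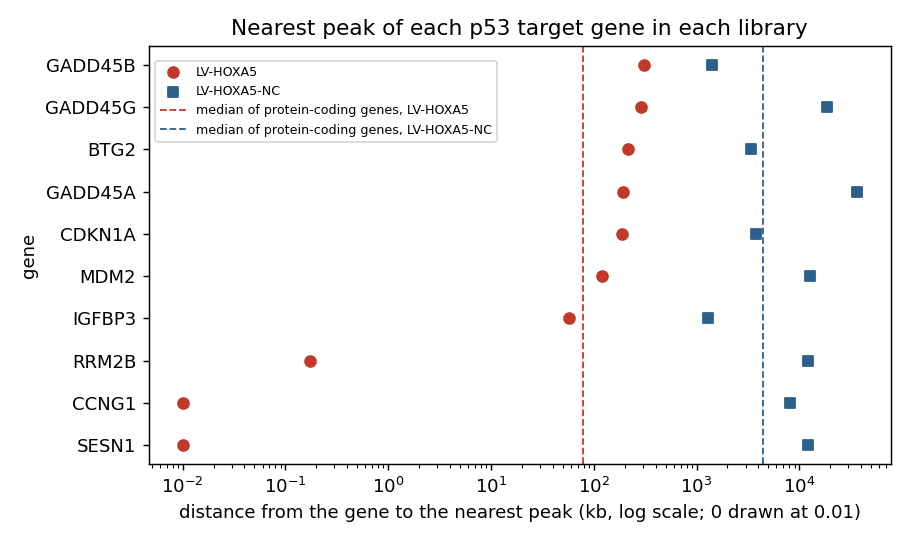
Distance from each of the 10 genes to the nearest peak in kb (x axis, log scale, with a distance of 0 drawn at 0.01) in LV-HOXA5 (red circles) and LV-HOXA5-NC (blue squares), with dashed lines at the medians over all protein-coding genes (77.9 kb and 4.43 Mb). CCNG1, SESN1 and RRM2B stand apart at under 1 kb in LV-HOXA5, whereas the LV-HOXA5-NC distances begin at 1.29 Mb.

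The LV-HOXA5-NC list held no peak close to any of the 10 genes, with distances from 1.29 Mb at IGFBP3 to 36.3 Mb at GADD45A and a median of 10.1 Mb. No LV-HOXA5-NC peak lay within 500 kb of any of them. The median over all protein-coding genes was 4.43 Mb. None of the 4 LV-HOXA5 peaks overlapped an LV-HOXA5-NC peak.

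The depth of the control library bears on this absence. Scaled by the totals of fragments, the pileup of the CCNG1 start peak corresponds to 4.82 fragments in LV-HOXA5-NC (interval 3.43 to 6.58), where 5 would be needed at its scaled background to match the weakest p-value listed there. The far CCNG1 peak corresponds to 3.71 fragments against 6 needed, RRM2B to 2.84 against 6, and SESN1 to 1.36 against 4. On this scale all 4 values fell short of the pileup needed at an equal density, although the interval of the CCNG1 start peak included it. The outcome depended on the scale. At the 438 nuclear LV-HOXA5 peaks that overlapped a control peak, the control pileup was a median of 45.5% of the LV-HOXA5 pileup. With this scale, which rests on regions chosen for being listed in both libraries, the start peak of CCNG1 corresponds to 17.7 fragments against 9 needed, the far CCNG1 peak to 13.6 against 10, RRM2B to 10.5 against 10 and SESN1 to 5.00 against 6. Which scale is fair at these genes was not settled, so the absence of control peaks there does not show a difference between the conditions.

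RefSeq lists starts for CCNG1 at 163437571 and 163437595, and the peak covered the windows at both. Positions given here are from the first. The window there held the letters TAAT on the opposite strand (ATTA) at position -60 from the start. The middle of the match was 55.5 bp from the summit. CCAAT, the letters known for the factor NF-Y, occurred at 4 places, starting at -203, -125, -54 and -7, the last 2.0 bp from the summit. GGGCGG, known for the Sp1 family, occurred once at -14. Over all 35116 promoter windows, 50.2% held TAAT, 34.6% CCAAT and 45.0% GGGCGG, and of the 2892 windows under an LV-HOXA5 peak, 39.7%, 51.7% and 73.3% did. TAAT was thus less frequent in the windows under a peak than in all windows. The median GC content was 63.3% under the peaks and 58.7% in all windows. The CCNG1 window was 56.0% GC at the first start and 58.3% GC at the other.

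The SESN1 window under the peak was 75.0% GC and held GGGCGG at 8 places, 5 of them inside the peak, and neither TAAT nor CCAAT. Among the 8 genes with a window, TAAT was found in 3, CCNG1, SESN1 (at a start without a peak) and GADD45B (at position 47, without a peak). The longer letters TAATTA, which contain TAAT and stood in 4.84% of all windows and 2.14% of those under a peak, were found in none. CACGTG, the E-box read by the MYC, MAX and MXD1 family, was found in GADD45B and GADD45G, both without a peak, and in 7.26% of all windows and 9.96% of those under a peak. TGANTCA, known for AP-1, stood in a pair of overlapping MDM2 windows that share the match at 68808899 to 68808905. Its share was 7.71% of all windows and 5.15% of those under a peak. The p53 decamer, the repeated unit of a p53 response element, stood in 1 SESN1 window, at the start at 109008988 without a peak. Its share was 6.63% of all windows and 5.5% of those under a peak. These matches describe the letters in the windows and are not evidence of binding.

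Of 48 other genes of the p53 pathway, 18 (37.5%) had an LV-HOXA5 peak inside or within 3 kb, beside 20.7% of all protein-coding genes. The exact 95% binomial interval of the 37.5% was 24.0 to 52.6%, and it covers counting error only. The list was chosen with earlier results of these data known. These shares were not matched for gene length, and a difference from all protein-coding genes was not tested. In LV-HOXA5-NC, 0 of the 48 genes had a peak, beside 0.648%. By overlap of an LV-HOXA5 peak with a promoter window, 12 of the 43 genes with a window were hit, beside 12.6%. Among further genes of growth arrest, 4 of 9 had a peak (interval 13.7 to 78.8%). The 9 include a gene without a peak that the study counts as promoting the cell cycle. SESN3, a paralogue of SESN1, had a peak of 18 fragments and 7.75-fold enrichment inside the gene and 785 bp from its end. PLK2, a stress-induced polo-like kinase, had a 5.68-fold peak 21 bp from an end. CCNG2, the paralogue of CCNG1, had a 5.36-fold peak, lower than the 9.07-fold peak of CCNG1. BTG1, the paralogue of BTG2, had a 4.43-fold peak 17 bp from an end, whereas BTG2 had none.

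Of the genes of apoptosis, 8 of 20 had a peak (interval 19.1 to 63.9%), beside 20.7% of all protein-coding genes. The highest fold enrichments among them were those of SIAH1, a ubiquitin ligase (7.35), TP53I3, an oxidoreductase (7.18), CYCS, cytochrome c (6.53), and APAF1, the core of the apoptosome (6.09). Among the regulators of p53, 3 of 7 had a peak (interval 9.9 to 81.6%). They were the checkpoint kinase CHEK2 (6.61-fold), MDM4, the partner of MDM2 (5.69-fold, over an end of the gene), and the phosphatase PPM1D (3.41-fold). Of the genes of DNA repair and metabolism, 3 of 7 had a peak (interval 9.9 to 81.6%), namely TIGAR (4.97-fold), DDB2 (4.45-fold) and POLK (3.76-fold). Of the genes listed as secreted or surface proteins, 0 of 5 had a peak (interval 0.0 to 52.2%). Each gene was listed under a single role. The genes of apoptosis with a peak include that of a surface receptor, so this 0 holds for the 5 listed genes alone. These groups are small, their intervals overlap, and differences between them were not tested. The CCNG1 start peak had a higher fold enrichment than every peak of the 18 genes.

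**Figure D4:**
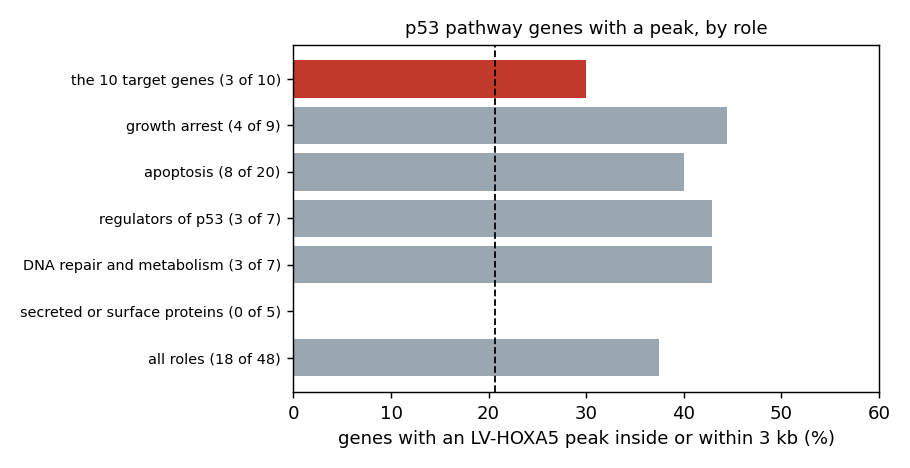
Share of genes with an LV-HOXA5 peak inside or within 3 kb, in percent (x axis), for the 10 target genes (red bar) and for 48 other p53 pathway genes by role (grey bars), with counts beside each name and a dashed line at 20.7%, the share of all protein-coding genes. The red bar stands at 3 of 10 and all 48 genes together at 18 of 48.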

How the data were processed

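The authors trimmed and aligned reads to GRCh38 (fastp, Bowtie2, deepTools, MACS2 and ChIPseeker are named in the submitters' processing notes) and removed duplicates. Per the file headers, peaks were called in each library alone by MACS 2.2.7.1, with paired ends, a q-value limit of 0.05 and no control. The deposited tables give the pileup signal (fragments over the summit), the fold enrichment ratio over the local background and −log10 p-values and q-values. The second deposited form of each list matched the first at all 8043 and 635 peaks (positions equal, −log10 q-values within 0.01) and was not used further. The shortest peak allowed was 246 bp for LV-HOXA5 and 283 bp for the control.

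Here, peaks were placed on RefSeq genes of GRCh38.p14 by position. The local background was recovered as (pileup + 1) / fold − 1. All 10 genes were named, with every peak inside or within 3 kb, or else the nearest. Of the pathway list, at most the 4 genes of highest fold enrichment per role were named, and neighbours only where they shared a peak. The genes, lists and motifs were chosen with earlier results of these data known. Peak assignment was tested on simulated data. Intervals describe counting error alone, and genes or peaks do not stand for replicates. Python 3.11.15, NumPy 2.4.6, SciPy 1.17.1, pandas 2.3.3 and Matplotlib 3.10.9 were used. Neighbours of RRM2B are not reported here.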

Additional observations from a re-analysis of the deposited data

How the results depend on the processing

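No paired analysis was possible because each condition had 1 library, and leaving out a replicate was not possible for the same reason. The number of target genes with an LV-HOXA5 peak was 3 under each planned filter and window. By promoter windows, an alternative chosen after seeing the data, it was 2 of the 8 genes that had a window. RRM2B had no window and could not be counted. SESN1 passed the filter at the median fold enrichment only narrowly, at rank 4006 among the 8043 peaks. The number of their peaks was 3 or 4, and that of target genes with an LV-HOXA5-NC peak was 0 throughout. The share of protein-coding genes with a peak moved from 20.7% to 17.9% with a q-value of 0.001 or less, 11.2% when only the upper part of the list by fold enrichment (the median or more) was kept, 19.5% and 24.7% with limits of 1 and 10 kb, 14.9% without gene bodies, 11.2% over all genes of the table and 12.6% by promoter windows. The 18 pathway genes with a peak became 10 at or above the median fold enrichment, 13 with the stricter q-value, 13 without gene bodies and 21 within 10 kb, and stayed at 18 in number within 1 kb and by summits. With the scale from shared peaks, the scaled pileups moved to 5.00 (SESN1), 10.5 (RRM2B), 17.7 (CCNG1 start) and 13.6 (far CCNG1 peak). The median distance of 192 kb was kept with summits and with the stricter q-value. The ranks of the 3 genes depended on the measure. The depth of LV-HOXA5-NC limits what its list can show.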
